A study of Homo sapiens with 4 samples.

Results

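Genes of synaptic vesicles and of synaptic adhesion were followed in SH-SY5Y cells, a clonal human neuroblastoma line of sympathetic lineage. Members were taken by symbol: the synaptotagmins and synaptotagmin-like proteins (SYT), neurexins (NRXN), neuroligins (NLGN), vesicle glycoproteins (SV2), SHANK scaffolds, LRRTM and SLITRK adhesion proteins, RIM proteins (RIMS), complexins (CPLX), synapsins (SYN) and DLG scaffolds. This gave 47 of the 14884 genes with a named probe set, each read by 1 probe set. They comprise 22 SYT, 2 NRXN, 4 NLGN, 3 SV2, 3 SHANK, 3 LRRTM, 3 RIMS, 4 CPLX and 3 SYN symbols. No SLITRK or DLG gene has a named probe set here, and these families were not analysed. Also not analysed for that reason were NLGN4X, LRRTM2, SHANK3, RIMS3, SYT15B and SYT16. Of the 47, 44 are protein-coding, while NLGN4Y-AS1 and SHANK2-AS1 are long noncoding RNAs and SYT14P1 is a pseudogene.

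The study exposed cells for 24 h to origamicin at 30 µM, a compound that the submitters describe as an inhibitor of protein disulfide isomerase, on 2 arrays. Mock cells received the solvent methanol for the same 24 h, also on 2 arrays. All cells were the same line in the same serum-containing medium, and the labels name no differentiation step. The labels speak of biological replicates but do not state that the cultures were grown apart. The p-values therefore rest only on the spread between these arrays. For each gene, limma moderates that spread towards the spread of all genes tested. Values are log2 expression per probe set. Each ± is the standard error (SE) of the log2 change in the chosen limma fit, origamicin minus mock, over 2 arrays per group.

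At a chemical synapse, vesicles filled with transmitter dock at the active zone, where RIM proteins and complexins prepare them for fusion and calcium-binding synaptotagmins trigger it. Synapsins hold a reserve of vesicles, and SV2 proteins sit in the vesicle membrane. Across the cleft, presynaptic neurexins bind neuroligins and LRRTM proteins, which connect to scaffolds such as SHANK inside the receiving cell. Neuroblastoma cells are undifferentiated tumour cells that carry dense core vesicles, and many of these genes also serve the release of peptides and catecholamines from such vesicles.

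Genes whose mean fell under 3.82, the 40th percentile over the whole table, were set aside as dim, which left 11883 genes for the fit. Of the 47 members, 43 passed this filter. The 4 below it were CPLX4, SYT14P1, SYTL2 and SYTL5. Closest below was SYTL2, at 3.52 and 3.68 on the origamicin arrays and 3.71 and 3.75 on the mock arrays. Closest above were SYT9, at 4.07 and 3.77 on the origamicin arrays and 3.73 and 4.13 on the mock arrays, and SYT10, at 4.03 and 3.69 on the origamicin arrays and 3.93 and 4.06 on the mock arrays. NLGN4Y-AS1 was tested but is Y-linked and is given no level.

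In the limma fit over all genes, 0 of 43 members passed an adjusted p of 0.05, as did 0 of the 11883 genes (0%). An unadjusted p under 0.05 was reached by 8 members (18.6%), beside 16.4% of all genes tested, so the families as a whole differed about as often as any other genes. Of the 8, 4 were higher after origamicin (LRRTM1, SYT4, SYT5 and SV2C), beside 7.99% of all genes, and 4 were lower (NLGN1, NLGN2, LRRTM4 and SYT17), beside 8.42%. When the variance was allowed to follow intensity (limma with an intensity trend), the same 4 higher members passed an adjusted p of 0.05 (9.3% of 43), beside 4.3% of all genes. The share of all genes higher and past it was 2.14%. No lower member passed, beside 2.16%. The log2 changes of these 4 genes were the same in both fits. The SE, the p-values and their adjustment over all genes differed, and the 4 passed 0.05 in that fit and not in the chosen one. With the trend the SE was smaller for SYT4, SYT5 and SV2C but larger for LRRTM1 (0.10, against 0.06). The median log2 change was -0.04 over the 43 members and -0.01 over all genes tested, and the median size of the change was 0.08 and 0.11. The groups did not overlap for 17 of the 43 members, beside 48.6% of all genes. The treated arrays were above the mock arrays for 5 members (LRRTM1, SYT4, SYT5, SV2C and SYT3), beside 22.7%, and below for 12, beside 25.8%. Over the 43 members the median absolute log2 difference was 0.10 between the arrays of either group and 0.10 to 0.17 between arrays of different groups. Fewer cells of a type and less RNA per cell cannot be told apart in these bulk samples.

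**Figure D1:**
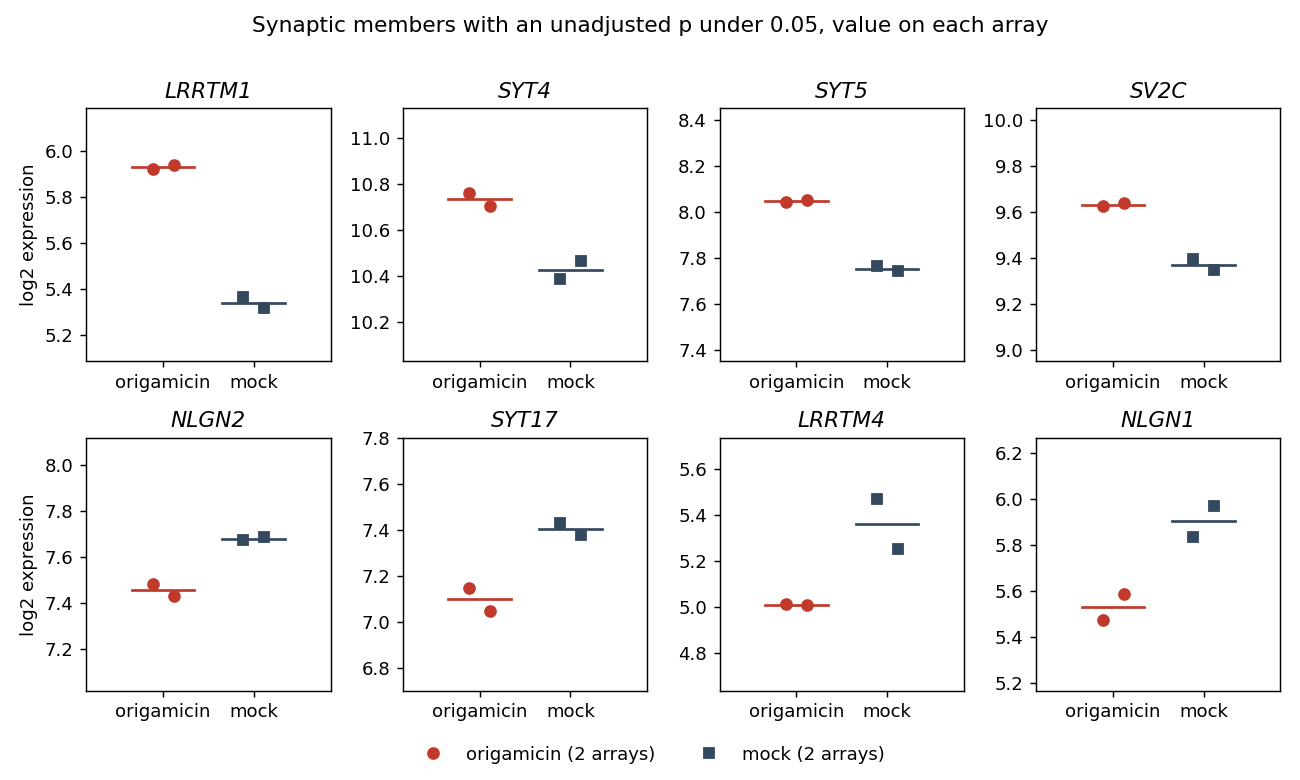
Log2 expression of the 8 members with an unadjusted p under 0.05, each point an array (circles, origamicin; squares, mock) and each bar a group mean. Every panel spans the same range, and in all 8 the origamicin arrays lie wholly above (LRRTM1, SYT4, SYT5, SV2C) or wholly below (NLGN2, SYT17, LRRTM4, NLGN1) the mock arrays.

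The postsynaptic ligands of neurexins included 4 of 6 tested genes with an unadjusted p under 0.05, beside 16.4% of all genes. Of the 4, 1 was higher and 3 were lower, beside 7.99% and 8.42% of all genes. None of the 6 passed an adjusted p of 0.05 in the chosen fit. The roles were drawn up with earlier results known, so this share is a description with no test. LRRTM1, a leucine-rich transmembrane protein of excitatory synapses, read 5.92 and 5.94 on the origamicin arrays, against 5.36 and 5.31 on the mock arrays. Both treated arrays stood well above both mock arrays, with gaps within groups of 0.02 and 0.05. The change was 0.59 ± 0.06, or 1.51-fold (limma adjusted p = 0.099, and 0.029 with an intensity trend, where the SE was 0.10). It was the only member among the 53 genes (0.446% of those tested) with an adjusted p under 0.1 in the chosen fit. It also passed 0.05 when the filter was raised to the 60th percentile (adjusted p = 0.034, where 0.993% of genes passed).

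LRRTM4, a paralogue on the same chromosome 2 that also binds heparan sulfate proteoglycans, went the other way. It read 5.01 and 5.01 on the origamicin arrays, against 5.47 and 5.25 on the mock arrays, a change of -0.35 ± 0.09 (limma adjusted p = 0.22). LRRTM1 exceeded LRRTM4 by 0.91 and 0.93 on the log2 scale on the origamicin arrays, and by -0.11 and 0.06 on the mock arrays. Since different probes read the genes, only the shift of this gap, 0.94, is a measure of the treatment, and it was chosen for its size and not tested. LRRTM3 stood at -0.01 ± 0.11 on dim values, 4.18 and 3.91 in origamicin and 4.10 and 4.02 in mock cells.

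Neuroligins are the classical partners of neurexins and help to specify excitatory and inhibitory contacts. NLGN1, typical of excitatory synapses, read 5.47 and 5.59 on the origamicin arrays, against 5.84 and 5.97 on the mock arrays, a change of -0.37 ± 0.09 (limma adjusted p = 0.19). NLGN2, typical of inhibitory synapses, read 7.48 and 7.43 on the origamicin arrays, against 7.67 and 7.69 on the mock arrays, a change of -0.22 ± 0.06 (limma adjusted p = 0.23). For both genes the groups were separate, and the fold was 1.29 and 1.17 lower after origamicin. NLGN3, found at both kinds of synapse, read 8.27 and 8.29 on the origamicin arrays and 8.25 and 8.40 on the mock arrays. Its treated arrays lay between the mock arrays, and the change of -0.04 had a 95% interval of -0.26 to 0.17.

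Their presynaptic receptors, the neurexins, did not reach an unadjusted p under 0.05 in the limma fit. Whether neurexins moved less than neuroligins was not tested. NRXN2 read 6.42 and 6.26 on the origamicin arrays, against 6.52 and 6.53 on the mock arrays, a change of -0.18 ± 0.08 (limma adjusted p = 0.37). NRXN3 was dim, and its arrays overlapped, with a change of 0.15 ± 0.17. The SHANK scaffolds, which tie receptor complexes to actin, gave changes of 0.07 ± 0.13 (SHANK1) and 0.07 ± 0.11 (SHANK2). SHANK1 read 6.02 and 5.78 on the origamicin arrays and 5.71 and 5.96 on the mock arrays, so its arrays overlapped. The antisense RNA SHANK2-AS1, which lies inside SHANK2, stood at -0.05 ± 0.11.

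**Figure D2:**
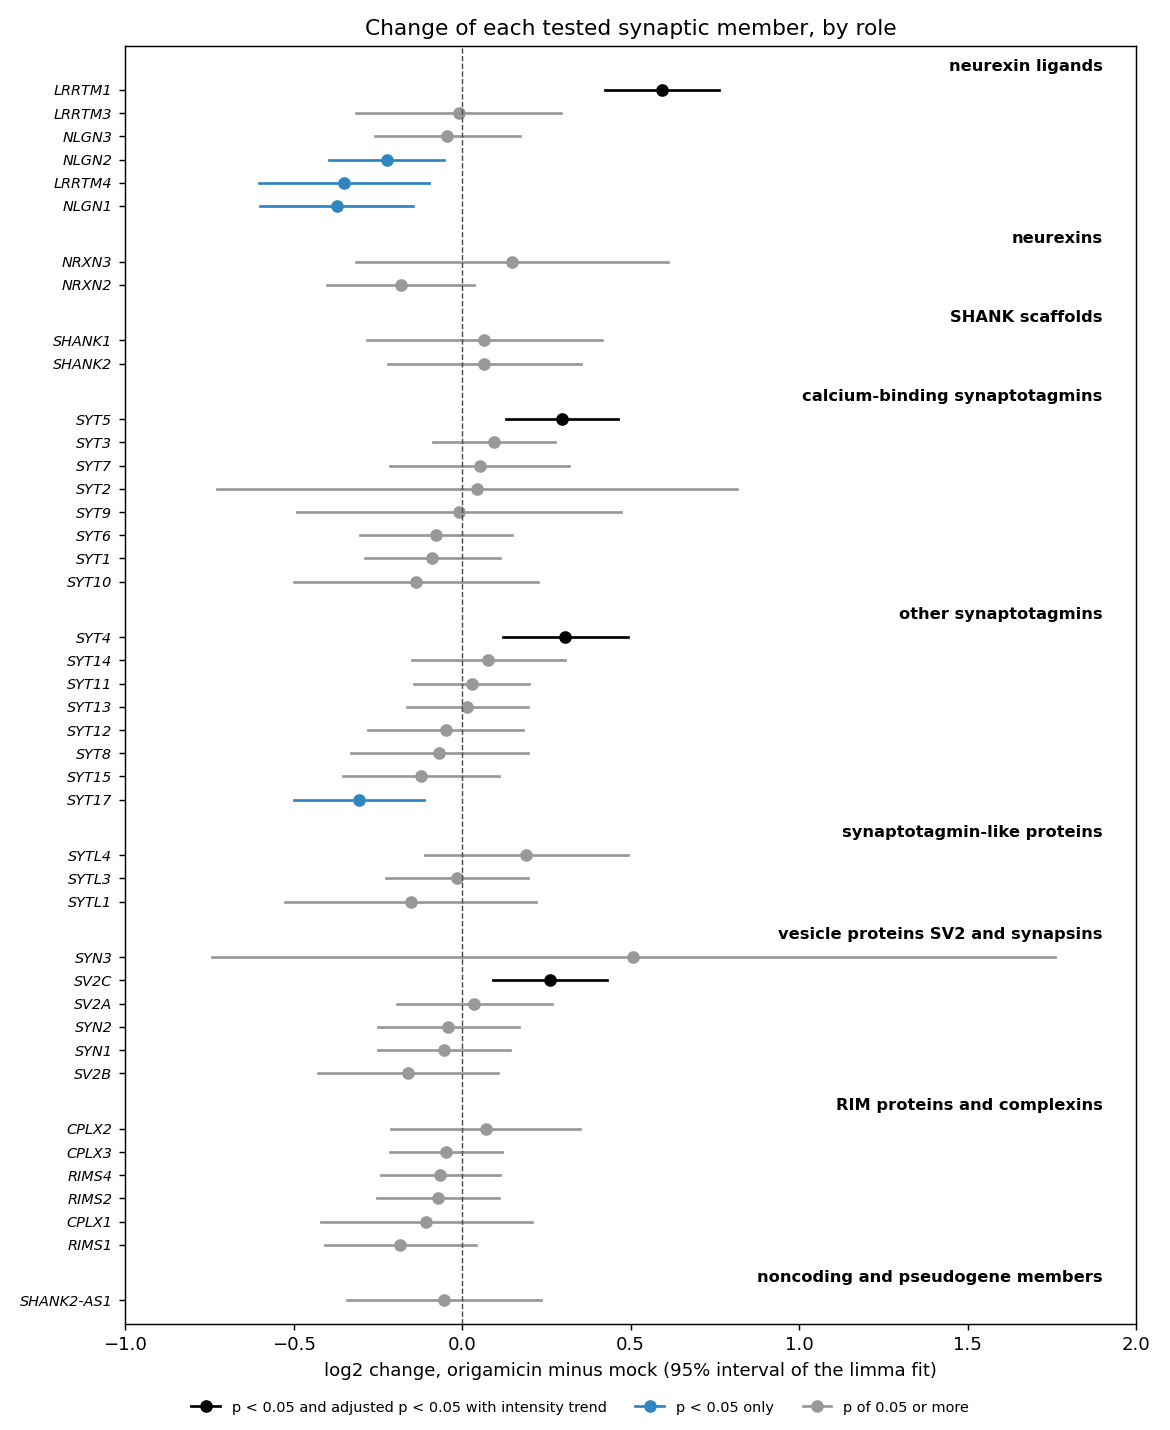
Log2 change of 42 tested members, origamicin minus mock, with the 95% interval of the limma fit, grouped by role (NLGN4Y-AS1 is left out). Intervals that exclude 0 belong to the 8 genes in black or blue, and the 4 in black also pass an adjusted p of 0.05 with an intensity trend.

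Synaptotagmins carry paired calcium-sensing domains, but only some of them bind calcium. Among the 8 calcium-binding members, 4 were higher and 4 lower, with a median of 0.02. SYT5, a sensor of dense core vesicles, read 8.04 and 8.05 on the origamicin arrays, against 7.76 and 7.74 on the mock arrays. Its arrays agreed closely within each group, and the change was 0.30 ± 0.06, or 1.23-fold (limma adjusted p = 0.18, and 0.036 with an intensity trend). SYT1, the main sensor for fast release, read 6.46 and 6.36 on the origamicin arrays and 6.46 and 6.54 on the mock arrays, a change of -0.09 ± 0.08. SYT3 read 6.22 and 6.19 on the origamicin arrays and 6.07 and 6.15 on the mock arrays, a change of 0.09 ± 0.07. SYT1 and the 5 members not yet named had overlapping arrays. Among them SYT2 had the widest interval, -0.73 to 0.82, with mock arrays at 4.64 and 5.39, and SYT7, a sensor for slow release, stood at 0.05 ± 0.10. SYT6, SYT9 and SYT10 gave -0.08 ± 0.08, -0.01 ± 0.18 and -0.14 ± 0.14 on values that ran from 3.69 to 4.39.

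Of the 8 synaptotagmins that do not bind calcium or are not known to, SYT4 was the highest and SYT17 the lowest in change, and the median was -0.02. SYT4, which in rat PC12 cells is known as an activity-induced gene and sits on dense core vesicles, read 10.76 and 10.71 on the origamicin arrays, against 10.39 and 10.46 on the mock arrays. The change was 0.31 ± 0.07, or 1.24-fold (limma adjusted p = 0.18, and 0.019 with an intensity trend). Its closest relative SYT11, which restrains membrane retrieval in mouse neurons, read 11.63 and 11.60 on the origamicin arrays and 11.57 and 11.61 on the mock arrays. The change of SYT11 was 0.03, with a 95% interval of -0.14 to 0.20. SYT17, found on the Golgi apparatus and endosomes in rat neurons, read 7.15 and 7.05 on the origamicin arrays, against 7.43 and 7.38 on the mock arrays, a change of -0.31 ± 0.07 (limma adjusted p = 0.19, and 0.065 with an intensity trend). SYT14, a gene of cerebellar ataxia, read 8.55 and 8.64 on the origamicin arrays and 8.44 and 8.59 on the mock arrays, a change of 0.08 ± 0.08. Its pseudogene SYT14P1, at 1.95 to 2.20 over the 4 arrays, was below the filter. Like SYT14, SYT13 (0.02 ± 0.07), SYT12 (-0.05 ± 0.09) and SYT8 (-0.07 ± 0.10) had overlapping arrays. SYT15 read 5.37 and 5.21 on the origamicin arrays and 5.45 and 5.37 on the mock arrays, a change of -0.12 ± 0.09. Its value is uncertain to the extent that its probes share targets with its near-identical copy SYT15B.

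Synaptotagmin-like proteins bind the GTPase Rab27 on secretory granules. SYTL4, known from insulin granules, read 4.99 and 4.81 on the origamicin arrays and 4.60 and 4.82 on the mock arrays, a change of 0.19 ± 0.11. SYTL1 read 5.15 and 4.89 on the origamicin arrays and 5.04 and 5.30 on the mock arrays, a change of -0.15 ± 0.14. Both genes had overlapping arrays, as had SYTL3 (-0.01 ± 0.08). SYTL5, below the filter, read 3.71 and 3.71 on the origamicin arrays and 3.32 and 3.46 on the mock arrays, a difference of 0.32 with no test in the chosen fit.

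SV2 glycoproteins reside on synaptic and dense core vesicles and serve as entry receptors of botulinum neurotoxin. SV2C read 9.63 and 9.64 on the origamicin arrays, against 9.39 and 9.35 on the mock arrays, a change of 0.26 ± 0.06, or 1.20-fold (limma adjusted p = 0.20, and 0.027 with an intensity trend). SV2A, the target of levetiracetam, read 8.92 and 8.77 on the origamicin arrays and 8.76 and 8.86 on the mock arrays, a change of 0.04 with a 95% interval of -0.19 to 0.27. SV2B was dim, at 3.89 and 3.98 on the origamicin arrays and 3.99 and 4.21 on the mock arrays, and its change was -0.16 ± 0.10. Whether SV2C differed from SV2A in its response was not tested.

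Among active zone and fusion proteins, 5 of 6 were lower, beside 6194 of all 11883 genes. None had an unadjusted p under 0.05, beside 16.4% of all genes. RIMS1, an active zone organiser, read 6.32 and 6.44 on the origamicin arrays, against 6.50 and 6.63 on the mock arrays, a change of -0.18 ± 0.08 (limma adjusted p = 0.38). RIMS2 read 5.66 and 5.66 on the origamicin arrays and 5.69 and 5.78 on the mock arrays, a change of -0.07 ± 0.07. RIMS4, a short family member, read 7.03 and 6.96 on the origamicin arrays and 7.07 and 7.05 on the mock arrays, a change of -0.06 ± 0.07. Complexins bind assembled SNARE complexes, the machinery of membrane fusion. CPLX1 read 7.09 and 6.82 on the origamicin arrays and 7.13 and 7.00 on the mock arrays, a change of -0.11 ± 0.12. CPLX2 stood at 0.07 ± 0.10 and CPLX3 at -0.05 ± 0.06. CPLX4, below the filter, read 2.53 and 2.62 on the origamicin arrays and 2.51 and 2.15 on the mock arrays. The RIM genes and CPLX3 each had treated arrays below both mock arrays, 4 of the 12 members lower without overlap. Of all genes tested, 25.8% were lower without overlap.

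For the synapsins no difference exceeded the spread between arrays. SYN1 read 8.77 and 8.89 on the origamicin arrays and 8.86 and 8.90 on the mock arrays, a change of -0.05 ± 0.07. SYN2 read 7.30 and 7.35 on the origamicin arrays and 7.43 and 7.29 on the mock arrays, a change of -0.04 ± 0.08. SYN3 had the second largest change of the members, 0.51, but its SE was 0.47, and the groups overlapped, with treated arrays at 5.09 and 4.60 and mock arrays at 3.69 and 4.99. Without mock replicate 1 its change became -0.14.

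Each synapsin gene holds a gene for a tissue inhibitor of metalloproteinases (TIMP), secreted proteins that block matrix proteases. TIMP1, inside SYN1, read 8.18 and 7.99 on the origamicin arrays, against 7.42 and 7.60 on the mock arrays. Both treated arrays lay above both mock arrays, and the change was 0.58 ± 0.11 (limma adjusted p = 0.17, and 0.022 with an intensity trend). TIMP4, inside SYN2, was dim and stood at 0.13 ± 0.20, and TIMP3, inside SYN3, at -0.21 ± 0.15. TIMP1 thus rose with an intensity trend while the gene around it had a 95% interval of -0.25 to 0.14. The pairs were looked up after the values of TIMP1 were known.

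**Figure D3:**
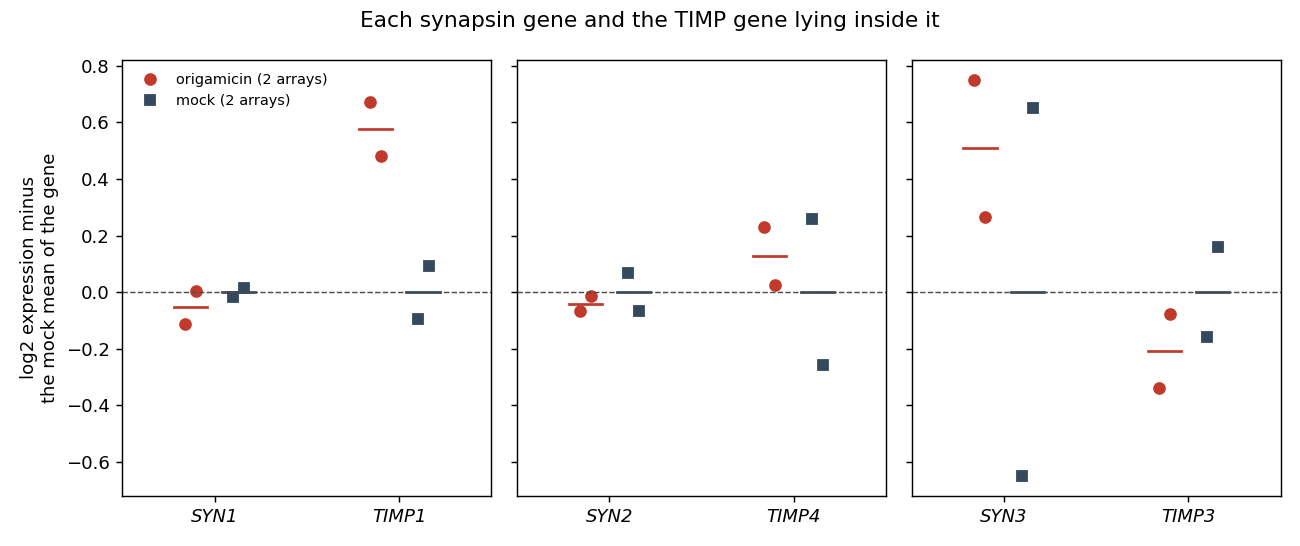
Log2 expression of SYN1, SYN2 and SYN3 and of the TIMP gene inside each, per array and relative to the mock mean of the gene (circles, origamicin; squares, mock; bars, group means). TIMP1 is the single gene of the 6 whose treated arrays both lie above its mock arrays, and SYN3 shows the widest mock spread.

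Promoter sequences from RefSeq (GRCh38.p14) were found for 32 of the 47 members, with 51 start sites. They are shown for the 4 members that were higher together, and for SYN1, a vesicle gene that was not. Each is the 250 bases before the first listed start site, 5′ to 3′ on the gene's strand: SYT4 at chr18:43277491-43277740 (minus), SV2C at chr5:76083133-76083382 (plus), SYT5 at chr19:55180290-55180539 (minus), LRRTM1 at chr2:80304753-80305002 (minus) and SYN1 at chrX:47619858-47620107 (minus). Capitals mark TCAGCACC, the left arm of the RE1 element bound by the neuronal gene repressor REST, the same arm followed after 2 bases by the right arm GGACAG, the cyclic AMP response element TGACGTCA and its core TGACG, on either strand. The longer motifs contain the shorter ones, and GGACAG alone is not marked.
SYT4: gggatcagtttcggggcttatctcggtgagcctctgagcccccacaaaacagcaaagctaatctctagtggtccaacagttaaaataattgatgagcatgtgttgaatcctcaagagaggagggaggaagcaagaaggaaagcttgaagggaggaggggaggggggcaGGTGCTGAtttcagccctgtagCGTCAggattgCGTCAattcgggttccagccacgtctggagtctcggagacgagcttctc
SV2C: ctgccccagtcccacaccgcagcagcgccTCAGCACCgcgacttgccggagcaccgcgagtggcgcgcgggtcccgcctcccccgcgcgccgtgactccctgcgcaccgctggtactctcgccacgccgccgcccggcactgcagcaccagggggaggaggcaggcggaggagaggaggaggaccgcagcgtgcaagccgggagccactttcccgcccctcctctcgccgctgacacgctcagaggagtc
SYT5: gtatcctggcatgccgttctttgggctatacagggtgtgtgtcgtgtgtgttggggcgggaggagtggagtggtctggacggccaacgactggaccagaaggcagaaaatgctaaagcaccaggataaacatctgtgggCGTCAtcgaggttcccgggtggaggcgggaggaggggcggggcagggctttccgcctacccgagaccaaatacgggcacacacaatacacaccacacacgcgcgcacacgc
LRRTM1: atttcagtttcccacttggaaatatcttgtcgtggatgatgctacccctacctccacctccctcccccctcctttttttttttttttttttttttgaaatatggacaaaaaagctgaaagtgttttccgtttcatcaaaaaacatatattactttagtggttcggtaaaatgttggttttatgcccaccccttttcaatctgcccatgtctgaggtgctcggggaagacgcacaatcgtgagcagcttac
SYN1: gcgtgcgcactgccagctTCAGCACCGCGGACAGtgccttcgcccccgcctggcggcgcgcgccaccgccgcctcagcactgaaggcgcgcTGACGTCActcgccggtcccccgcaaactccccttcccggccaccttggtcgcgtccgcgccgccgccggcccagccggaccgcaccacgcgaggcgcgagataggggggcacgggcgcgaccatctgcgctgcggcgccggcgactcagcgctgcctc

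The arm TCAGCACC occurred upstream of 5 of the 32 members with a promoter sequence, SYT4, SV2C, SV2B, SYT3 and SYN1. This was 5 of their 51 promoters, beside 1.32% of all 35116 promoters. Both arms together occurred in SYN1 and in no other member, beside 0.0342% of all promoters. SYN1 also held the only TGACGTCA among the members, which 1.65% of all promoters hold. TGACG was found in 7 of the 32 members and in 8 of their 51 promoters, beside 21.2% of all promoters. SYT4 had 2 matches and SYT5 had 1 at the start site shown. LRRTM1 held none of these motifs in its window. The motifs were chosen after the sequences were seen, and a match is a description of letters. Members with this arm were higher (SYT4, SV2C, SYT3) and lower (SV2B, SYN1) in change.

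Other genes of the synapse were read from a pair of lists that exclude the members. Of 63 vesicle and release genes, 33 had a named probe set and 28 were tested. The median change was 0.07, and 7 of 28 (25%) had an unadjusted p under 0.05, 6 higher and 1 lower, beside 7.99% and 8.42% of all genes. None passed an adjusted p of 0.05 in the chosen fit. With an intensity trend 2 passed, both higher (BSN and SYNJ1), beside 2.14% of all genes. BSN, the active zone scaffold Bassoon, read 6.48 and 6.62 on the origamicin arrays, against 5.98 and 6.11 on the mock arrays, a change of 0.51 ± 0.09 (limma adjusted p = 0.17). SYNJ1, a lipid phosphatase of vesicle retrieval, gave 0.35 ± 0.07, and the vesicle protein SYNGR1 gave 0.36 ± 0.09. ERC2, which binds RIM proteins at the active zone, was lower by comparison, at 5.95 and 5.99 on the origamicin arrays against 6.26 and 6.40 on the mock arrays, a change of -0.36 ± 0.08.

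Of 60 adhesion and scaffold genes, 38 were named and 30 tested. The median change was -0.04, and 8 of 30 (26.7%) had an unadjusted p under 0.05, beside 16.4% of all genes. Of the 8, 3 were higher and 5 lower, beside 7.99% and 8.42% of all genes. None passed an adjusted p of 0.05 in the chosen fit. With an intensity trend 5 passed, 3 higher and 2 lower, beside 2.14% and 2.16% of all genes. FLRT3, a ligand of latrophilins, read 6.56 and 6.72 on the origamicin arrays, against 7.36 and 7.39 on the mock arrays, a change of -0.73 ± 0.08 (limma adjusted p = 0.10, and 0.0089 with an intensity trend). CBLN4, a secreted protein that binds neurexins, read 5.46 and 5.94 on the origamicin arrays, against 6.38 and 6.60 on the mock arrays, a change of -0.79 ± 0.18. CNTNAP2, a neurexin-related protein of axons, gave 0.50 ± 0.07, and CADM3, a nectin-like adhesion protein, gave 0.55 ± 0.08. The latrophilin ADGRL2 (0.20 ± 0.06) and CADM1 (-0.26 ± 0.06), a partner of CADM3, were chosen after their values were seen. CADM1 did not pass with an intensity trend (adjusted p = 0.058).

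**Figure D4:**
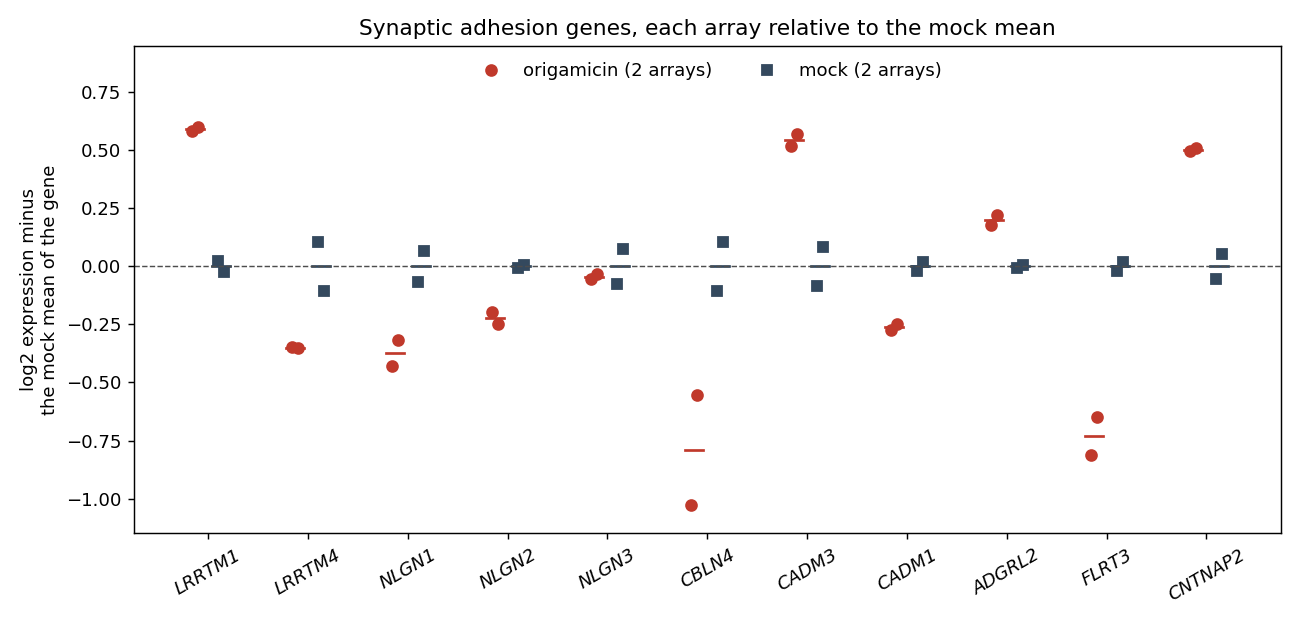
Log2 expression of 11 synaptic adhesion genes, per array and relative to the mock mean of the gene (circles, origamicin; squares, mock; bars, group means). LRRTM1, CADM3, CNTNAP2 and ADGRL2 lie above their mock arrays, LRRTM4, NLGN1, NLGN2, CBLN4, CADM1 and FLRT3 below, and NLGN3 between them.

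Markers of cell identity were read on the same arrays. Of 20 neuronal and noradrenergic markers 11 were named and tested. Of these, 10 were lower, and 6 had an unadjusted p under 0.05, all lower, beside 8.42% of all genes. The largest changes were in CHGA (-0.80 ± 0.09), CHGB (-0.76 ± 0.08), DDC (-0.59 ± 0.06) and ISL1 (-0.30 ± 0.07). Little change was seen in TH (-0.01 ± 0.12), GATA3 (-0.02 ± 0.06) and HAND2 (0.04 ± 0.07). The summed linear signal of the 11 was 19374 and 19186 on the origamicin arrays, against 21487 and 21730 on the mock arrays, and none lay below the filter. This sum is weighted towards the brightest genes, DBH and STMN2. The mean log2 value of the 11 was 9.80 and 9.82 on the origamicin arrays, against 10.06 and 10.11 on the mock arrays. Of 15 mesenchymal (S-type) markers 12 were named and 11 tested. Of these, 10 were higher and 6 had an unadjusted p under 0.05, all higher, beside 7.99% of all genes. Their summed signal, over 12 named genes with CD44 below the filter, was 2303 and 2172 on the origamicin arrays, against 1843 and 1796 on the mock arrays. The 5 named of 9 glial and Schwann cell markers had none under 0.05, with sums of 145 and 157 on the origamicin arrays and 137 and 145 on the mock arrays. None of these markers reached an adjusted p of 0.05 by limma without the intensity trend. With it, 4 neuronal and noradrenergic markers passed, all lower, beside 2.16% of all genes. Of the mesenchymal markers 6 passed, all higher, beside 2.14%, and no glial marker did. The part of these differences in the changes of the synaptic genes was not tested.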

How the data were processed

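RNA of 4 cultures was read on Affymetrix Human Gene arrays. The authors deposited log2 values, 1 per probe set and array. The submitters' processing notes list RMA, which corrects background, equalises array distributions and summarises probes, as well as limma, both with no version. The genome build is not given in the sources used here. Array medians of 4.37 to 4.42 showed normalized data, which were not normalized again. Arrays have no counting depth, and their number limits the precision.

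Of 53617 probe sets, 16098 name 1 gene in the platform annotation, none names several, and 37519 are unnamed here. All gene identifiers matched RefSeq and no symbol changed. The probe set with the highest mean stood for a gene. The comparison used limma 3.58.1 under R 4.3.3, namely lmFit followed by eBayes (all 4 arrays, no covariate, two-sided, Benjamini-Hochberg over 11883 genes). Named in full were the 20 tested members with the smallest p and the brightest member of each family, apart from the Y-linked one, and the 4 genes with the smallest p of the vesicle and of the adhesion list. The members, lists and roles were chosen with earlier results of these data known. In 10 simulated data sets of 11883 genes, the fit recovered 8.8% of changes of 0.5 and 74.8% of changes of 1, and with an intensity trend 46.4% and 83.9%. The simulated spread was drawn to follow intensity, a setting that favours the fit with a trend. Mean false calls per data set were 3.7 in the chosen fit and 6.4 with a trend. Alternatives changed the filter, scaling, probe set rule, variance model, replicates and block. The deviations of equally numbered arrays did not correlate (r = -0.02 over genes). With so few arrays per group, this cannot show whether equally numbered cultures were paired, and the labels do not say.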

Additional observations from a re-analysis of the deposited data

How the results depend on the processing

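The chosen fit called 0 members and 0 genes. Raising the filter to the 60th percentile called 1 member and 92 genes, an intensity trend 4 members and 511 genes, and an adjusted p under 0.1 gave 1 member and 53 genes. No member was called under the replicate block, no filter, equal medians, quantiles made equal, averaged probe sets, robust eBayes or any left-out array. Averaging left the values of the members as they were, since each has 1 probe set. With the replicate block the members under an unadjusted p of 0.05 stayed at 8 in number, the calls stayed at 0, and LRRTM1 had an adjusted p of 0.30. Without 1 array that number ranged from 5 (without mock replicate 1) to 10, and the median change from -0.057 to -0.0020 (without origamicin replicate 2). The 8 members under 0.05 kept their sign in every alternative run. Their groups did not overlap, so leaving out 1 array could not reverse the sign. The filter, variance model and block do not alter a gene's change, so in those runs the sign was fixed too. Of 296 values of 25 named members, 284 kept their direction and side of the threshold, and 5 passed it, all higher after origamicin: LRRTM1 with the stricter filter, and LRRTM1, SYT4, SYT5 and SV2C with an intensity trend. The other 7 changed sign, all of genes with an interval across 0. Over the 4 fits without 1 array, SYN3 ranged from -0.141 (without mock replicate 1) to 1.16, SYT10 from -0.306 to 0.0328 (without origamicin replicate 2), CPLX1 from -0.241 to 0.0296 (without origamicin replicate 2), NLGN3 from -0.121 to 0.0328 (without mock replicate 2) and SYN1 from -0.112 to 0.0049 (without origamicin replicate 1). SHANK1 ranged from -0.057 (without mock replicate 1) to 0.188, with -0.0545 without origamicin replicate 1. The cause was not tested. Members read near the filter, such as SV2B, SYT9 and LRRTM3, have little signal over background, so small changes in them were not measurable with 2 arrays per group.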

Other observations

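A microRNA gene inside SYTL3, MIR3918, read 4.31 and 4.27 on the origamicin arrays, against 4.61 and 4.54 on the mock arrays, a log2 change of -0.28 ± 0.07 (SE), while SYTL3 stood at -0.01. The limma adjusted p of MIR3918 was 0.19, and 0.33 with an intensity trend. It was chosen after its values were seen. SHANK1 and SYT3, neighbours on chromosome 19, both overlap C19orf81 in the annotation, which stood at 0.21 ± 0.23.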
